A study of Mus musculus with 39 samples.

Results

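Mouse embryonic stem cells (ESCs) of the TCL-1 line, kept with 100 ng/ml Activin A, were compared between day 3 and day 5 of differentiation by their microRNA (miRNA) content. The comparison rests on 6 of the 39 arrays of the series, 3 labelled Activin A day 3 and 3 labelled Activin A day 5, all taken from the scanner output of each array. It asks which miRNAs still moved once the cells had been exposed to the growth factor for 3 days. Before treatment the treated and control cells had been passaged on gelatin to remove mouse embryonic fibroblast feeders and plated on collagen. The paper does not state this for the undifferentiated ESCs of the series. All treated and control cells shared serum-free RPMI-1640 with B27 and sodium butyrate. Set beside the Activin A cells were 6 arrays of control cells in that medium without growth factors (3 each at day 3 and day 5). A further 6 came from cells that had 50 ng/ml Wnt3a added to the same Activin A dose, again 3 each at both days. The 3 samples of a group are numbered, but the labels do not say that they came from separate cultures, so the p-values measure the spread between these arrays, which may be technical. RNA was taken from whole cultures, in which fewer cells of a type and less RNA per cell cannot be told apart.

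Activin A is a ligand of the TGF-beta superfamily that signals through Smad2 and Smad3, and a high dose of it is the usual way of driving pluripotent cells towards mesendoderm and definitive endoderm (DE), the layer from which liver, pancreas and gut arise. miRNAs are short RNAs that guide Argonaute proteins to messenger RNAs, mainly by pairing of their seed, bases 2 to 8 from the 5′ end. Each hairpin precursor can give a mature strand from either arm, and on this array the less abundant strand is often marked with a star. miRNAs of one cluster are cut from one transcript, while miRNAs of one family share a seed and may come from different chromosomes.

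The mature sequences of the miRNAs on which the results turn are printed from RefSeq (build GRCm38.p6), 5′ to 3′, with the seed in capitals. A mature entry was found for 34 of the 35 array names looked up, those without an arm being read as the strand that older miRBase releases gave that name. The first set holds miRNAs that were higher at day 5, and beside them miR-10a, which was lower and is shown because it shares its seed with miR-10b. In the same set miR-196a shares its seed with miR-196b, and miR-181b shares its seed with miR-181c.
miR-335-5p: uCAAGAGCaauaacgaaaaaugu
miR-335-3p: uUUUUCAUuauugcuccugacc
miR-135a: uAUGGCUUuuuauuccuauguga
miR-1224: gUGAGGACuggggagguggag
miR-152: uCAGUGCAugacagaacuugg
miR-710: cCAAGUCUuggggagaguugag
miR-711: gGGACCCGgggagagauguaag
miR-125b-5p: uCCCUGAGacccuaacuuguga
miR-10b: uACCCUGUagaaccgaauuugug
miR-10a: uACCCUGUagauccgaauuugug
miR-196a: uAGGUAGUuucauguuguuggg
miR-196b: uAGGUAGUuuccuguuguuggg
miR-181b: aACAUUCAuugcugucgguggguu
miR-181c: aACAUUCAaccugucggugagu
miR-503: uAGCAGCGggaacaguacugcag
miR-762: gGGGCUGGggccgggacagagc

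The next set holds miRNAs that were lower at day 5, namely 4 of the 9 that were detected on all 6 arrays.
miR-672: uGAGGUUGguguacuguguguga
let-7c: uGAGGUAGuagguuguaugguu
miR-290-3p: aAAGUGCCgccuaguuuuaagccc
miR-376b*: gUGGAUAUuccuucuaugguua

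The last set holds miRNAs whose change differed from that of control cells, among them the miR-200 family with its 2 seeds (miR-141 and miR-200a against miR-200b, miR-200c and miR-429).
miR-141: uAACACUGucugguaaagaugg
miR-200a: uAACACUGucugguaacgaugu
miR-200b: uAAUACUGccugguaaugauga
miR-200c: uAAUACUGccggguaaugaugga
miR-429: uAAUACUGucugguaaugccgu
miR-302a*: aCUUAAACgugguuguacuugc
miR-99a: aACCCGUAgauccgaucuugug
miR-9: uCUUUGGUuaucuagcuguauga
miR-9*: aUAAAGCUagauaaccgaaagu
miR-153: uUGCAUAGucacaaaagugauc

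Of the 611 mouse miRNA rows, 285 to 295 were detected on the day 3 arrays and 314 to 333 on the day 5 arrays. No spot was saturated. Levels are log2 of the quantile normalized signal, with a floor of 1 on that scale, and they do not compare one miRNA with another. The floor was set for every row, so a detected row can also stand at it. All 3 day 3 arrays lay on 1 slide of the first scan session, and the day 5 arrays lay on 2 slides of the second (replicate 3 apart from replicates 1 and 2), so day and scan session cannot be told apart in the Activin A change itself. Control cells were split between the same sessions by day in the same way, and both days of Activin A plus Wnt3a were scanned in the second session. Scan session therefore also enters the difference of the Activin A change from the change with both factors. Replicate 3 of day 5 was the least like its group, with a root mean square difference of 0.39 (log2) from replicates 1 and 2, which differed by 0.19, while arrays of different days differed by 0.56 to 0.65. In the series' own value table, 18 of the 39 columns (9 Activin A and 9 Activin A plus Wnt3a) follow the scanner array of the other treatment of the same day and replicate, all 6 Activin A columns of days 3 and 5 among them. The scanner files are followed here. Under the other assignment the Activin A plus Wnt3a values given below would be those of Activin A.

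As a check of the labelled cell state, all 6 markers of undifferentiated ESCs (the miR-290 to miR-295 cluster) were detected on all 6 arrays. Their summed quantile normalized signal went from 34631 to 34637 on the day 3 arrays to 25930 to 28875 on those of day 5. In quantile normalization the brightest rows take the values of their ranks, so these sums follow ranks and their narrow range at day 3 does not measure precision. The 5 markers of primed epiblast from the miR-302 to miR-367 cluster and the 5 miR-200 markers of epithelial cells were likewise detected on all 6 arrays. Of 7 miRNAs of endoderm and its organs only miR-375 was detected, on all 6 arrays, and the others, including miR-192 and miR-194, were undetected on both days. Undetected on all arrays of a day were 3 of 3 muscle markers at day 3 and 2 of 3 at day 5, 5 of 6 blood markers on both days, and 4 of 5 markers of feeder fibroblasts and mesenchyme at day 3 but 2 of 5 at day 5. Of the 5 neural markers, 3 were detected on every array of day 3 and 4 on every array of day 5. The endothelial miR-126-3p was detected on all 6 arrays and its other strand, miR-126-5p, on none.

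Between day 3 and day 5, 32 of the 330 miRNAs tested were called, that is, differed more than 2-fold at an adjusted p under 0.05 (limma with Benjamini-Hochberg adjustment). The called miRNAs were 22 up-regulated (6.67%) and 10 down-regulated (3.03%), together 9.70% of those tested. For 6 of those higher, which were undetected at day 3, the fitted difference and its p are taken against the floor. Among miRNAs detected on all 6 arrays the rises were led by miR-375 and both strands of miR-335. The largest fitted rise of all was that of miR-181b, which 1 of 3 arrays detected at day 3. The falls were smaller in number and 7 of the 10 began at a level under 4. This split depended on scaling. When each array was scaled to the 75th percentile of the miRNAs detected on all 18 arrays of the fit, 36 miRNAs were called higher and 1 lower, and with the percentile over all rows 31 were higher and 1 lower. Setting the floor before quantile normalization gave 25 higher and 6 lower. The median difference over all miRNAs tested was -0.0032 with quantile normalization and 0.20 and 0.07 with these scalings, and the remaining fall was miR-672 in both. With the adjusted p alone, 149 miRNAs passed (45.2%), 66 of them higher (20.0%) and 83 lower (25.2%), so most of what moved did so by less than 2-fold. This split turned to 108 higher and 53 lower with the percentile of the miRNAs detected on all 18 arrays, and was 83 higher and 84 lower with that over all rows. The miRNAs just inside the 2-fold threshold were miR-302b* (-1.01), miR-290-3p (-1.05) and miR-369-3p (1.08). Just outside it were miR-546 (0.98), miR-29a (-0.91) and miR-494 (0.90).

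**Figure D1:**
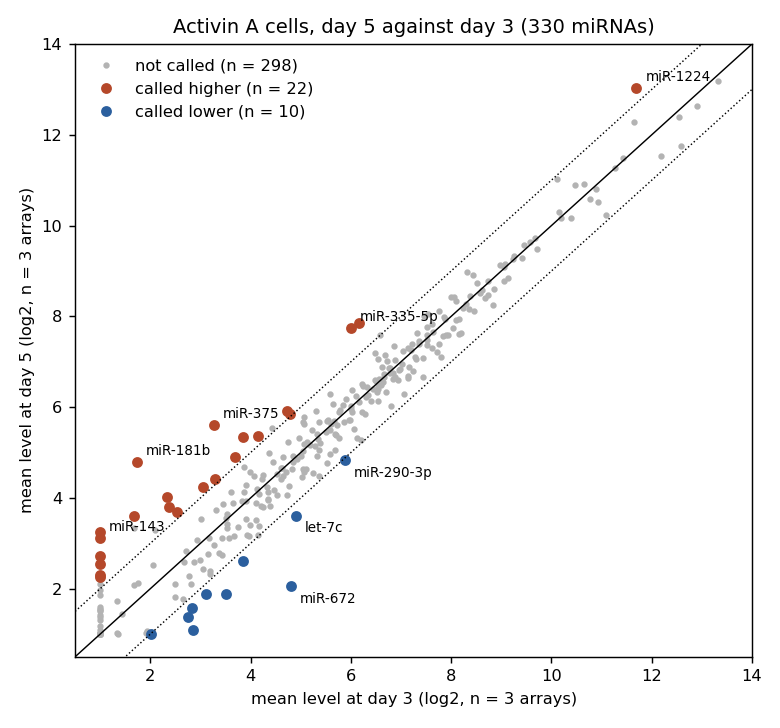
Mean level at day 3 (x axis) against mean level at day 5 (y axis) for the 330 miRNAs tested, both in log2 of the quantile normalized signal with 3 arrays a day. The solid line marks equal levels, the dotted lines a 2-fold difference. The 22 miRNAs called higher include a column at the day 3 floor of 1, and the 10 called lower lie at levels of at most 5.88 at day 3.

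Both strands of miR-335, which is encoded in an intron of the imprinted gene Mest, rose by nearly the same amount. The miR-335-5p level was 6.08, 5.78 and 6.14 at day 3 and 7.80, 7.67 and 7.73 at day 5. That of miR-335-3p was 6.12, 6.37 and 6.01 at day 3 and 7.88, 7.88 and 7.80 at day 5. The arrays of the 2 days did not overlap for either strand, as was the case for 189 of the 330 miRNAs tested (57.3%). The difference was 1.73 (SE 0.07, adjusted p = 1.24e-09), or 3.32-fold, for miR-335-5p and 1.68 (SE 0.09, adjusted p = 7.75e-09) for miR-335-3p. Both stayed called in 17 of 18 alternatives and in all 6 omissions of an array. The exception was normexp background correction, which reduced the differences to 0.86 and 0.89 without taking the adjusted p past the threshold.

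miR-375, best known from pancreatic islets and other endodermal organs, showed the largest rise among miRNAs detected on all 6 arrays. Its level was 3.37, 3.25 and 3.20 at day 3 and 5.63, 5.55 and 5.65 at day 5. The arrays of the 2 days were far apart, and the difference was 2.34 (SE 0.34, adjusted p = 9.68e-05). It was undetected in undifferentiated ESCs and on all 3 Activin A arrays of day 1. Among control cells a single array of day 3 detected it (level 2.77), and none of day 5 did. The other tested rows of the endoderm and gut list were miR-483, with a difference of 0.48 (SE 0.13, adjusted p = 0.00671), miR-483* at -0.96 (SE 0.81) and miR-338-5p at -0.08 (SE 0.32). Neither miR-483* nor miR-338-5p passed.

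miR-135a stood at 3.64, 3.74 and 4.19 at day 3 and at 5.40, 5.43 and 5.21 at day 5, a difference of 1.49 (SE 0.17, adjusted p = 1.42e-05) that missed the threshold in a fit of 24 arrays (adjusted p = 0.0554). Its family member miR-135b rose less, by 0.37 (SE 0.05, adjusted p = 5.50e-05), and the star strand miR-135a* by 0.22 (SE 0.07, adjusted p = 0.0178). All 3 tested members of the pair were therefore higher, but only miR-135a by over 2-fold. miR-125b-5p, the mammalian counterpart of lin-4, was 4.82, 4.70 and 4.68 at day 3 and 5.99, 5.90 and 5.85 at day 5. No array of one day reached the range of the other, and the rise was 1.18 (SE 0.09, adjusted p = 5.00e-07). In the plot of levels over time this followed a much higher level on day 1 (mean 10.8). Of its relatives, miR-99b gave 0.04 (SE 0.09) and miR-125a-5p 0.15 (SE 0.09), neither past the threshold, and miR-99a and miR-100 were undetected on both days.

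miR-1224, excised as a short intron without the Drosha enzyme, was among the brightest rows, at 11.75, 11.75 and 11.59 on day 3 and 12.89, 13.32 and 12.89 on day 5. The difference of 1.34 (SE 0.14, adjusted p = 4.78e-06) depended on the scaling, and in quantile normalization the brightest rows take the values of their ranks. It was 0.30 with 75th percentile scaling over the miRNAs detected on all 18 arrays and 0.17 (adjusted p = 0.082) with that over all rows. miR-152, a member of the miR-148 family, read 4.46, 3.52 and 4.48 at day 3 and 5.37, 5.30 and 5.40 at day 5. The low second array of day 3 sets most of its spread. Its difference of 1.21 (SE 0.43, adjusted p = 0.0367) fell to 0.89 without that array (adjusted p = 0.148), and the call was also lost when any 1 array of day 5 was left out (adjusted p 0.0669 to 0.0783) or with the replicate number as a block within each treatment (adjusted p = 0.0551). The relatives with its seed, miR-148a and miR-148b, gave -0.07 (SE 0.05) and 0.26 (SE 0.17) and did not pass.

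miR-710 and miR-711, 2 mouse entries for which no function can be stated here, behaved alike. miR-710 read 3.84, 3.84 and 3.40 at day 3 and 4.91, 4.93 and 4.84 at day 5, a rise of 1.20 (SE 0.13, adjusted p = 8.73e-06). miR-711 read 3.02, 3.18 and 2.98 and then 4.05, 4.31 and 4.35, a rise of 1.18 (SE 0.17, adjusted p = 9.36e-05). Both also rose by over 2-fold in control cells and with Activin A plus Wnt3a, with differences between 1.11 and 1.22 in those 4 tests. The Activin A change exceeded that of control cells by 0.04 (SE 0.19) for miR-710 and 0.07 (SE 0.24) for miR-711, neither past the threshold.

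**Figure D2:**
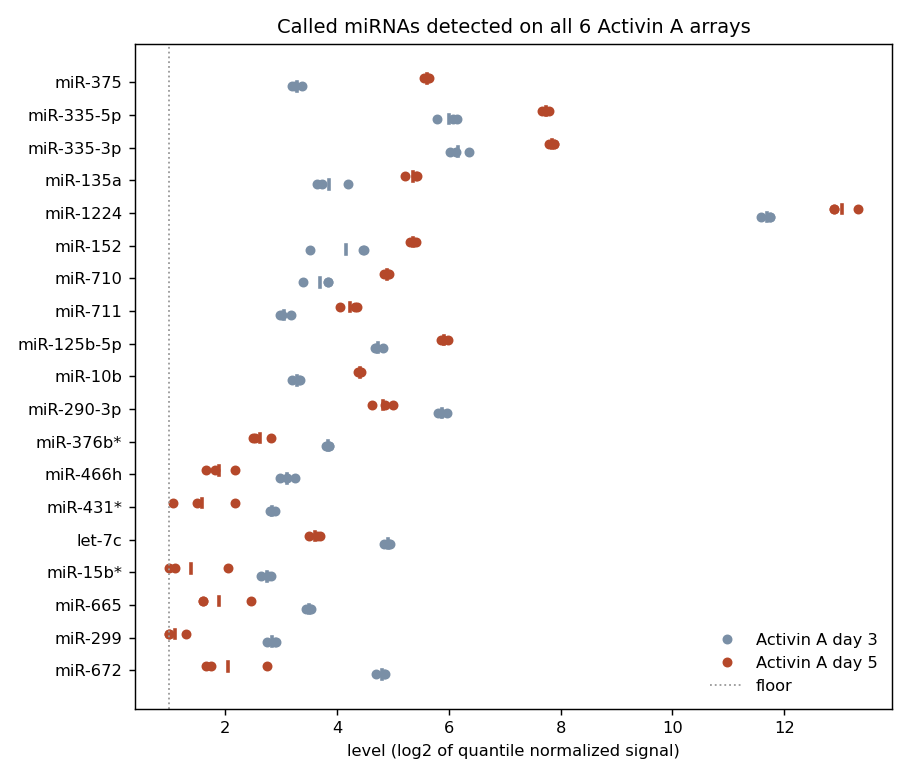
Level on each array (x axis, log2 of quantile normalized signal) of the 10 largest rises and the 9 falls among called miRNAs detected on all 6 arrays. Points are arrays, short bars the means of 3, and the dotted line is the floor of 1. No miRNA shown has a day 5 array inside the range of its day 3 arrays, and most falls lie under a level of 4 at both days.

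The 4 Hox cluster miRNAs that were tested, which are transcribed from within the Hox gene clusters and track the axial position of cells, did not move together. miR-10b, from the HoxD cluster, read 3.34, 3.20 and 3.32 at day 3 and 4.41, 4.37 and 4.43 at day 5, a rise of 1.12 (SE 0.15, adjusted p = 3.81e-05) that did not pass in a fit of all 39 arrays (adjusted p = 0.458). miR-10a, from the HoxB cluster and with the same seed, went the other way, from 3.19 ± 0.11 (SD, n = 3) to 2.31, 2.13 and 2.57. Its fall was under 2-fold, at -0.86 (SE 0.16, adjusted p = 6.98e-04). miR-196b was undetected on 1 of 3 day 3 arrays and read 3.07 and 2.91 on the others, against 3.99, 3.93 and 4.13 at day 5, with a fitted difference of 1.69 (adjusted p = 0.00245). miR-196a was undetected at day 3 and read 2.25, 2.02 and 2.67 at day 5, at least 1.05-fold higher. Its limma adjusted p (2.40e-04, or 0.385 over 39 arrays) is that of the fitted difference from the floor and does not test this bound. So 3 of the 4 were called higher, beside 6.67% of all miRNAs tested, with a median difference of 1.22 beside -0.0032 over all miRNAs tested. The median was positive under every scaling, from 0.10 with normexp background correction to 1.96.

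A set of 6 miRNAs was undetected on all 3 arrays of day 3, detected on all 3 of day 5 and called higher. For such rows the fitted difference and its adjusted p are taken against the floor, at which the day 3 arrays stand without spread. The value that can be stated is a lower bound against the lowest signals detected at day 3, which the p does not test. miR-762 read 3.27, 3.13 and 3.37 at day 5, at least 2.03-fold higher (adjusted p = 0.0061). miR-143, an abundant miRNA of smooth muscle and mesenchyme, read 3.20, 3.42 and 2.74, at least 1.85-fold higher (adjusted p = 5.00e-07). miR-503, which is made with miR-322 from one X-linked cluster, read 2.45, 2.86 and 2.83, at least 1.39-fold higher (adjusted p = 2.47e-06). The neural miRNA miR-219 read 2.80, 2.88 and 1.91, at least 1.23-fold higher (adjusted p = 0.00239). The other 2 were miR-196a and miR-718, the latter at least 1.01-fold higher (adjusted p = 0.0128). With a floor of 8 in place of 2 none of miR-762, miR-143, miR-503, miR-219 and miR-196a passed, and with normexp correction the difference of miR-219 was -0.007. Over all rows, 15 miRNAs were detected on every array of day 5 and on none of day 3, and 0 the other way round. Detection also reached lower signals at day 5, where 26, 26 and 9 detected rows lay under the floor, against 0 on each day 3 array, whose lowest detected levels were 1.99 to 2.41. The part of this in the count was not tested.

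miR-143 stood among 5 markers of feeder fibroblasts and mesenchyme. The summed signal of these 5 was at most 16.4 at day 3 and 28.0 to 30.3 at day 5. In undifferentiated ESCs miR-199a-3p, miR-199a-5p and miR-214 were all detected, with means of 8.08, 6.56 and 5.71. From day 3 on miR-214 and miR-199a-5p were undetected on both days, miR-145 was detected on 1 of 3 day 5 arrays, and miR-199a-3p was called higher, at 3.04 and 3.07 on 2 arrays of day 3 (undetected on the other) and 3.69, 3.77 and 3.93 at day 5. Without replicate 2 of day 3, the undetected array, its difference was 0.74. The part of such cells in these rises was not tested. Among blood markers only miR-223 was called, with 1 of 3 arrays detecting it at day 3 and all 3 at day 5. Its call was lost without replicate 1 or 3 of day 3 or any 1 array of day 5 (adjusted p 0.0582 to 0.118), and 5 of the 6 blood markers were undetected on both days.

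Of the miR-15 and miR-16 seed family, which slows the cell cycle, 8 rows were tested, among them the star strand miR-15b*, which does not carry the family seed. miR-322, cut from the same transcript as miR-503, rose under 2-fold from 5.50, 5.55 and 5.72 to 6.28, 6.30 and 6.30, a difference of 0.70 (SE 0.05, adjusted p = 3.37e-07). miR-497 and miR-195, which form another cluster, were lower by -0.76 (SE 0.13) and -0.45 (SE 0.08), and miR-15a by -0.28 (SE 0.06), each past the adjusted p. miR-15b and miR-16 did not pass, at 0.06 (SE 0.12) and 0.12 (SE 0.05). The median of the 8 rows, miR-15b* included, was -0.11, and negative under every scaling.

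In the miR-181 family, 4 members were tested and 2 called higher, beside 6.67% of all miRNAs tested. A single array of day 3 detected miR-181b, at 3.18, whereas the day 5 arrays read 4.72, 4.62 and 5.03. It had the largest fitted difference of the comparison, 3.07 (SE 0.49, adjusted p = 2.21e-04), of which the 2 undetected arrays form a part. miR-181c was undetected on 1 of 3 arrays at day 3 and passed narrowly (adjusted p = 0.0475). Its difference was 0.38 without that array, replicate 2, and it did not pass without any 1 array of day 5 (adjusted p 0.0789 to 0.11). miR-181d, detected throughout, gave 0.26 (SE 0.13) and did not pass. Nor did miR-181a, at 0.38 (SE 0.43).

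miR-672, for which no role can be stated here, showed the largest fall. Its level went from 4.84, 4.86 and 4.70 at day 3 to 2.74, 1.66 and 1.74 at day 5. No day 5 array came near the day 3 range, and the difference was -2.75 (SE 0.20, adjusted p = 2.21e-07). It stayed called in 17 of 18 alternatives, the exception being normexp correction (-0.28, still past the adjusted p), and in all 6 omissions. let-7c, of the family that opposes Lin28 and promotes differentiation, went from 4.93, 4.84 and 4.95 to 3.64, 3.49 and 3.69. The fall of -1.30 (SE 0.40, adjusted p = 0.0175) has a wide error in a fit that shares its spread with control cells, where let-7c was undetected on 1 of 3 arrays at day 3. It lost its call under both 75th percentile scalings (-0.84 and -0.96, adjusted p = 0.158 and 0.121), with quantile normalization over the 18 arrays (adjusted p = 0.0904) and with the replicate number as a block within each treatment (adjusted p = 0.0591). In the let-7 family, 6 members were tested. let-7a fell by 0.46 (SE 0.15, adjusted p = 0.0234), and let-7e and let-7f gave -0.14 (SE 0.40) and -0.10 (SE 0.09). The star strands let-7b* and let-7f*, which do not carry the family seed, gave 0.53 (SE 0.90) and 0.43 (SE 0.43). None of let-7e, let-7f and these star strands passed. The median of the family was -0.12 and turned to 0.13 and 0.26 under the 75th percentile scalings.

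Of the 7 other falls detected on all arrays, 6 began at a day 3 level under 4. miR-376b* read 3.86, 3.81 and 3.86 at day 3 and 2.49, 2.83 and 2.54 at day 5 (-1.22, SE 0.16, adjusted p = 4.62e-05). miR-665 read 3.52, 3.53 and 3.45 and then 1.60, 1.60 and 2.45, a difference of -1.62 (adjusted p = 3.26e-04). miR-299 read 2.91, 2.74 and 2.88 and then 1.00, 1.00 and 1.30. These miRNAs and miR-431* (-1.25) come from the imprinted Dlk1-Dio3 region, while miR-15b* (-1.36), miR-466h (-1.22) and miR-290-3p (-1.05) do not. Under 75th percentile scaling over miRNAs detected on all 18 arrays, all 7 lost their calls. miR-299, miR-15b*, miR-431*, miR-466h and miR-376b* did not pass the adjusted p, with differences of -0.38, 0.068, 0.075, -0.11 and -0.31. miR-665 and miR-290-3p passed it but came to -0.61 and -0.80, under 2-fold, and to -0.74 and -0.93 with the percentile over all rows. With a floor of 8 the differences of miR-299, miR-15b* and miR-431* were 0, and that of miR-466h was -0.12 (adjusted p = 0.678). With normexp correction these came to -0.016, -0.031, -0.022 and -0.040, and none passed the adjusted p. In both settings miR-376b*, miR-665 and miR-290-3p still passed it. Without replicate 2 of day 5 miR-15b* also missed the threshold (adjusted p = 0.0552), and miR-431* came to -0.9955, just under 2-fold. The number of rows detected rose from day 3 to day 5, which moves the ranks of faint rows in quantile normalization. Its part in these falls was not tested. The partner strands were measured as well. miR-15b, at a mean of 9.68 and 9.74, differed by 0.06 (SE 0.12), while miR-299* and miR-431 differed by -0.26 (SE 0.08) and -0.30 (SE 0.06). Of the 10 miRNAs called lower, 4 were star strands, against 48 star strands among the 330 tested.

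**Figure D3:**
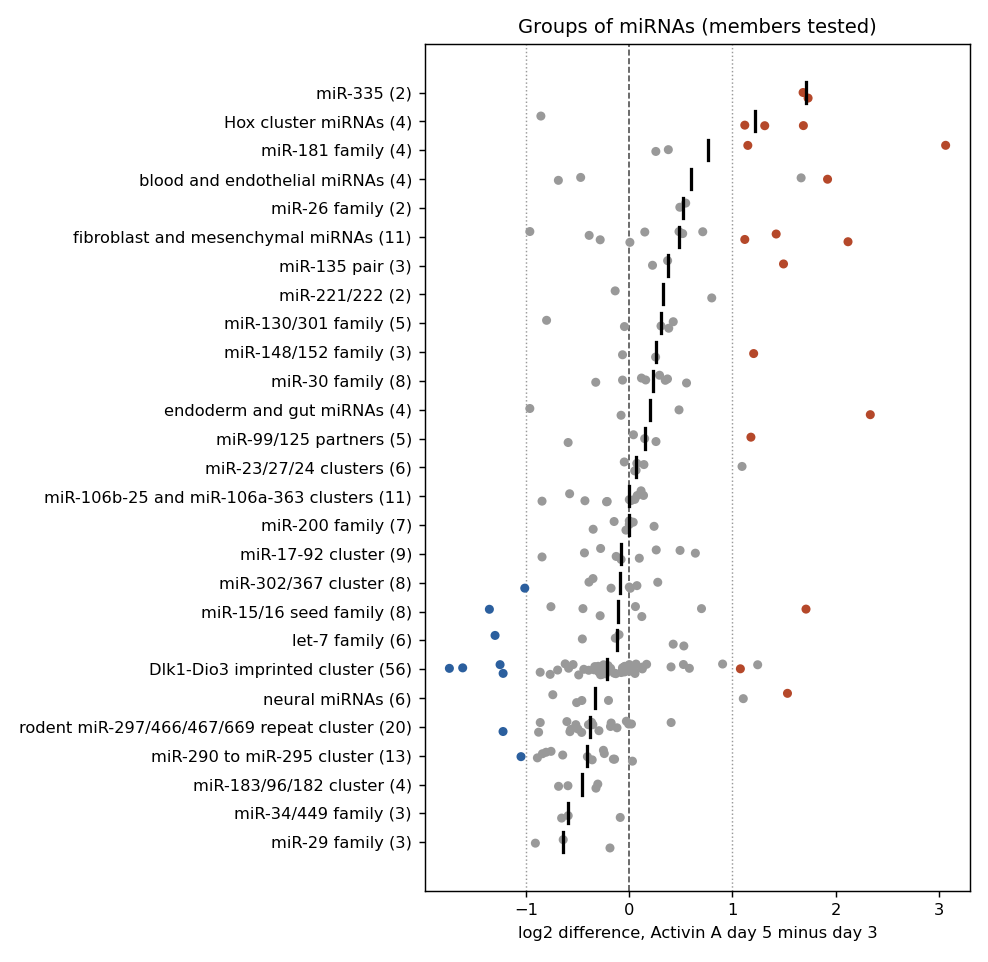
log2 difference, Activin A day 5 minus day 3 (x axis), of each tested member of 27 groups of miRNAs, with the number tested in brackets and groups ordered by median (black bar). Red points are called higher, blue points called lower, the dashed line is the median of all 330 miRNAs tested and the dotted lines mark 2-fold. The miR-335 pair and the Hox cluster lie highest, and the miR-29 family and miR-34 and miR-449 family lowest, with no called member in either.

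In the groups linked to pluripotency, the miR-290 to miR-295 cluster, which is the main miRNA transcript of undifferentiated mouse ESCs, had 9 members lower at day 5 by the adjusted p, against 1 each in the miR-302 to miR-367 cluster and the miR-200 family. Of 13 tested members of the miR-290 cluster, those 9 were lower (beside 25.2% of all miRNAs tested), 0 were higher, and 1 was called. Their median difference was -0.41, between -0.13 and -0.77 across the scalings. miR-292-3p gave 12.64, 12.48 and 12.64 at day 3 and 11.75, 11.75 and 11.75 at day 5, a fall of 0.84 (SE 0.07, adjusted p = 7.98e-07). The equal day 5 values are those of a shared rank, so their lack of spread does not measure how closely the arrays agree. miR-290-3p, the called member, fell from 5.85, 5.97 and 5.81 to 4.86, 5.00 and 4.62 (adjusted p = 6.31e-04), and by 0.95, under 2-fold, without replicate 3 of day 5. miR-294 did not pass, at -0.14 (SE 0.09), and neither did miR-291a-3p, at -0.15 (SE 0.13).

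The miR-302 to miR-367 cluster marks the primed epiblast. miR-302a held the same rank, and so the same level of 11.27, on all 6 arrays. The 8 tested members of the cluster had a median of -0.09, which lay between -0.24 and 0.01 across the scalings. miR-302d passed the adjusted p with 0.28 (SE 0.10), and the star strand miR-302b*, detected on 2 of 3 arrays on each day, was called lower although its arrays overlapped, a call lost without replicate 1 or 3 of day 3 (adjusted p = 0.0546 and 0.053). In the miR-200 family, which keeps epithelial cells from turning mesenchymal by restraining Zeb1 and Zeb2, miR-200b read 9.05 ± 0.09 (SD, n = 3) and then 9.09 ± 0.03 (SD, n = 3). Its difference was 0.04 (SE 0.05). miR-200a was slightly higher, by 0.24 (SE 0.08, adjusted p = 0.0184), and miR-200c lower, by -0.35 (SE 0.05, adjusted p = 5.12e-05). The median of the 7 tested rows was 0.00. They include the star strands miR-200a* and miR-200b*, which lay at the floor and so gave no difference.

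Among groups with small falls at the adjusted p were the sensory and epithelial cluster of miR-183, miR-96 and miR-182 (4 of 4 tested lower, from -0.31 to -0.69), the p53-linked miR-34 and miR-449 family (2 of 3) and the miR-29 family, which targets collagens and DNA methyltransferases (2 of 3). Beside them, 25.2% of all miRNAs tested were lower. miR-34a fell from 8.81, 8.81 and 8.87 to 8.29, 8.26 and 8.18, a difference of -0.59 (SE 0.04, adjusted p = 1.62e-07). miR-29a fell from 6.17, 6.08 and 6.35 to 5.33, 5.24 and 5.29, a difference of -0.91 (SE 0.09, adjusted p = 3.17e-06). All 3 medians were negative under every scaling. In the Dlk1-Dio3 imprinted cluster, 56 rows were tested, of which 26 were lower and 4 higher at the adjusted p, with 4 called lower and 1 higher. Over all miRNAs tested 25.2% were lower and 20.0% higher at the adjusted p, and 3.03% were called lower and 6.67% higher. With 75th percentile scaling over the miRNAs detected on all 18 arrays, the cluster had 15 lower and 9 higher at the adjusted p, with 0 called lower and 4 higher. Its median was -0.22, from -0.06 to -0.22 across the scalings. The called rise was miR-369-3p, from 4.77, 4.77 and 4.81 to 6.03, 5.92 and 5.63 (0.9915 without replicate 1 of day 5), while its partner miR-369-5p fell by 0.32 (SE 0.06, adjusted p = 8.67e-04). The rodent repeat rows of miR-297, miR-466, miR-467 and miR-669, many of which have near-identical sequences that a probe may not tell apart, had 20 tested, 12 lower and 0 higher at the adjusted p, beside the same 25.2% and 20.0%. With the 75th percentile of the miRNAs detected on all 18 arrays, 5 were lower and 2 higher. Their median was -0.38 (from -0.06 to -0.38).

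Small rises stood in the miR-26 pair, where miR-26a gave 0.49 (SE 0.04) and miR-26b 0.55 (SE 0.05), in the miR-30 family, with 4 of 8 tested members higher (beside 20.0% of all miRNAs tested) and 0 lower at the adjusted p, and in the hypoxia-responsive miR-210, at 0.51 (SE 0.04, adjusted p = 7.76e-07). Their medians were positive under every scaling. miR-218, encoded in introns of Slit2 and Slit3, rose from 6.48, 6.44 and 6.50 to 7.24, 7.19 and 7.12, a difference of 0.71 (SE 0.05, adjusted p = 1.62e-07). Within the oncogenic cluster of miR-17 to miR-92a, members of 1 transcript diverged, since miR-17 was higher by 0.26 (SE 0.04) and miR-92a, which is also encoded in the cluster of miR-106a and miR-363, lower by -0.85 (SE 0.10). The cluster's median was -0.08, turning to 0.06 with normexp correction.

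To ask which of these changes also took place without growth factors, the change of the Activin A cells was tested against that of control cells over the same 2 days. In control cells 79 of 322 miRNAs were called (24.5%), 45 higher and 34 lower. With 75th percentile scaling over the miRNAs detected on all 18 arrays the split was 75 higher and 20 lower, at a median difference over all miRNAs of 0.48, and with that over all rows 49 higher and 36 lower. Of the 22 rises with Activin A, 12 (54.5%) were also called higher in control cells, where they made up 26.7% of the rises. These 12 were miR-10b, miR-125b-5p, miR-135a, miR-152, miR-181b, miR-181c, miR-219, miR-223, miR-503, miR-710, miR-711 and miR-762. Of the 10 falls, 4 were shared (miR-376b*, miR-431*, miR-665 and miR-672). The difference between the 2 changes was called for 51 of 347 miRNAs (14.7%), 23 higher with Activin A (6.63%) and 28 lower (8.07%). With slide as a term in the fit, 49 were called, 44 of them the same miRNAs. Among the shared miRNAs, miR-672 fell further with Activin A than in control cells (-1.09, adjusted p = 0.00564) and miR-181b rose further (1.81, adjusted p = 0.0467). Neither stayed called with the slide term, miR-672 at -0.92 (adjusted p = 0.0317), under 2-fold, and miR-181b at 1.75 (adjusted p = 0.119).

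The differences upwards were led by miR-375, miR-141 and miR-302a*. miR-375 differed by 2.93 (SE 0.49, adjusted p = 2.45e-04). miR-141 and miR-302a* moved by -0.15 and 0.01 in Activin A cells, neither past the threshold, and fell in control cells. miR-141 read 6.10, 6.12 and 5.87 and then 5.90, 6.01 and 5.74 with Activin A, against 3.49, 4.05 and 3.04 in control cells at day 3. By day 5 only 1 of 3 control arrays detected it, at the floor. The difference was 2.38 (SE 0.28, adjusted p = 1.15e-05), and it did not pass with normexp correction, a floor of 8 or all 39 arrays (adjusted p = 0.42, 0.337 and 0.126). miR-302a* read 5.97, 6.03 and 6.03 and then 6.10, 5.99 and 5.97 with Activin A. In control cells it went from 5.30, 5.24 and 5.43 to 3.18 ± 0.07 (SD, n = 3), a difference of 2.15 (SE 0.08, adjusted p = 2.84e-11). By group, 5 of 7 tested members of the miR-200 family and 6 of 8 of the miR-302 to miR-367 cluster were called higher in this test, beside 6.63% of all miRNAs. Their median differences between the changes were 1.55 and 1.47. Of the miR-290 cluster 3 of 13 were, with a median of 0.61. The miR-200 rows not called were the star strands miR-200a* and miR-200b*, which lay at the floor. Both strands of miR-335 and miR-1224 also rose more than in control cells, by 1.19 (miR-335-5p), 1.23 (miR-335-3p) and 1.34. Levels of miR-335-5p in control cells were nonetheless higher throughout, at 8.72 on all 3 arrays of day 3 and 9.27 on all 3 of day 5. miR-1224 held the top rank on all 6 control arrays, so that no rise could have shown there.

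The differences downwards were led by miR-99a, miR-153 and miR-9*, which rose in control cells. miR-99a was undetected on all 6 Activin A arrays, and in control cells 2 of 3 day 3 arrays detected it and the day 5 arrays read 6.17, 6.21 and 6.19 (difference -3.82, adjusted p = 6.90e-05). miR-153 was also undetected with Activin A and read 5.32, 5.00 and 5.03 in control cells at day 5 (difference -3.45, adjusted p = 1.38e-04). miR-9*, made from the same hairpins as the neural miR-9, read 4.48, 4.51 and 4.57 and then 4.13, 3.99 and 4.07 with Activin A and reached 5.74, 5.74 and 5.76 in control cells at day 5 (difference -3.67, SE 0.79, adjusted p = 0.00157). The control values of these 3 miRNAs at day 3 include arrays at the floor, so the size of their differences depends on it. miR-9 itself was detected on every array of both treatments and days. It gave 5.87, 5.80 and 5.92 and then 5.76, 5.65 and 5.58 with Activin A, while control cells went from 5.16, 5.32 and 5.33 to 7.88, 7.88 and 7.91. Of the neural list, 4 of 7 tested members were called lower in this test, against 8.07% of all miRNAs, and within Activin A cells alone miR-124, miR-128 and miR-9 were lower at the adjusted p. miR-219, the neural miRNA called higher with Activin A, had a mean of 2.53 at day 5, beside 8.46 in control cells.

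**Figure D4:**
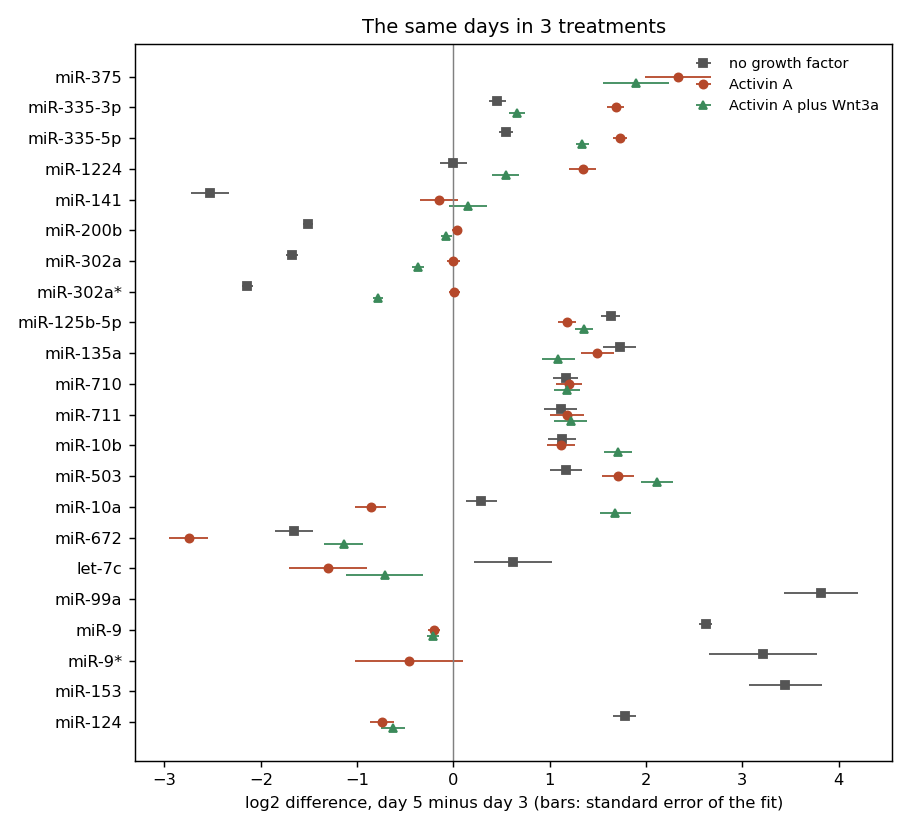
log2 difference, day 5 minus day 3 (x axis), of 22 miRNAs in control cells without growth factor (squares), with Activin A (circles) and with Activin A plus Wnt3a (triangles), with standard errors of the fit over 18 arrays; a missing symbol was not tested in that treatment. For miR-141, miR-200b, miR-302a and miR-302a* the Activin A symbols lie near 0 and the control symbols below -1.5, whereas for miR-9, miR-9*, miR-99a, miR-124 and miR-153 the control symbols lie above 1.5.

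With Wnt3a also present the same 2 days gave 25 called miRNAs of 311 (8.04%), 20 higher (6.43%) and 5 lower (1.61%). Of the 22 rises with Activin A alone, 14 (63.6%) were called higher there too, which was 70.0% of the rises with both factors. They were miR-10b, miR-125b-5p, miR-135a, miR-143, miR-152, miR-181b, miR-196a, miR-196b, miR-199a-3p, miR-335-5p, miR-375, miR-503, miR-710 and miR-711. The arrays with both factors lay within 1 scan session, but those of day 3 were on 1 slide and those of day 5 on another. With slide as a term in the fit, 17 miRNAs were called for the change with both factors, 14 of them among the 25. Of the falls, miR-672 and miR-302b* were shared. The difference between the 2 changes was called for 13 of 332 miRNAs (3.92%), 5 higher (1.51%) and 8 lower (2.41%) with Activin A alone. The split turned with scaling, to 15 higher and 4 lower with the 75th percentile of the miRNAs detected on all 18 arrays and to 12 higher and 5 lower with that over all rows. It was 8 and 7 with quantile normalization of log2 signals, and 7 each way with the floor set before normalization. The 13 calls fell to 4 when the fit took in the Wnt3a arrays of those days and to 8 over all 39 arrays. Of the groups compared here, only Activin A day 3 was scanned in the first session. Treatment and scan session therefore cannot be told apart in the difference between these changes, which could not be estimated with slide as a fixed term.

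miR-10a gave the largest of the downward differences, at -2.54 (SE 0.23, adjusted p = 8.18e-06). With Activin A plus Wnt3a it was undetected on all 3 arrays of day 3 and read 2.63, 2.67 and 2.74 at day 5, whereas with Activin A alone it fell. It narrowly missed the threshold over all 39 arrays (adjusted p = 0.0504) and gave -0.19 with a floor of 8 (adjusted p = 0.555). miR-196a read 4.84, 4.81 and 4.81 at day 5 with both factors, against 2.25, 2.02 and 2.67 with Activin A alone, and its change differed by -2.18 (SE 0.30, adjusted p = 3.28e-04, or 0.493 over all 39 arrays). miR-199a-5p was undetected on all 6 Activin A arrays and appeared with both factors at day 5, at 3.07, 2.83 and 2.80 (difference -1.90, adjusted p = 6.94e-10). Its Activin A arrays stand at the floor without spread, so that p does not measure how firm the difference is. With a floor of 8 that difference was -0.025 (adjusted p = 0.443). The fall of miR-672 was also deeper with Activin A alone, by -1.61 (SE 0.28, adjusted p = 0.0017). In the other direction, miR-335-3p rose more with Activin A alone, by 1.03 (SE 0.12, adjusted p = 6.33e-05). Further up stood miR-762 (2.87, adjusted p = 0.0248), miR-718 (1.57, adjusted p = 0.0471) and miR-302b* (1.29, adjusted p = 0.0404), all 3 with undetected arrays. Each of these 3 calls was lost when single arrays were left out, at adjusted p values up to 0.0639 for miR-762 (replicate 2 or 3 of the day 3 arrays with both factors), 0.118 for miR-718 (any of 11 arrays) and 0.0774 for miR-302b* (any of 9 arrays). With the replicate number as a block the p of miR-718 was 0.0611. The rise of miR-375 did not differ past the threshold, by 0.44 (SE 0.49, adjusted p = 0.566), with levels of 4.60, 4.11 and 4.43 and then 6.12, 6.26 and 6.44 when Wnt3a was added.

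**Figure D5:**
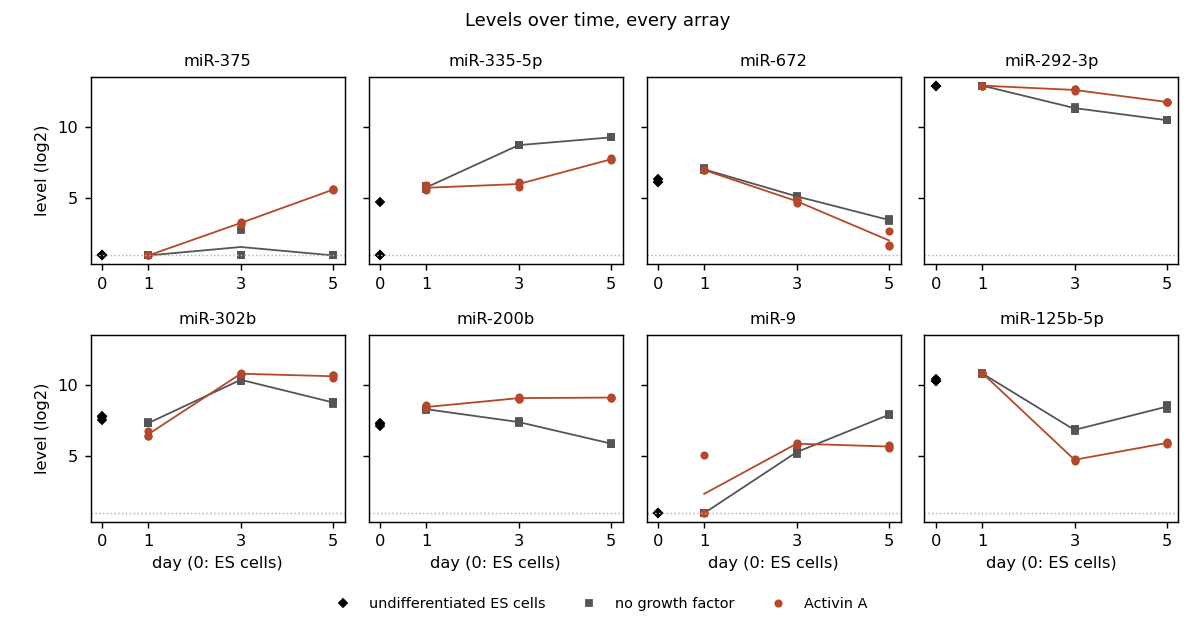
Level (y axis, log2 of quantile normalized signal) of 8 miRNAs on every array against day (x axis, with undifferentiated ES cells at 0), for control cells without growth factor (squares) and Activin A (circles). Lines join means of 3 arrays and the dotted line is the floor of 1. With Activin A, miR-375 and miR-335-5p climb from day 3 to day 5, miR-672 and miR-292-3p go down, and miR-302b, miR-200b and miR-9 stay close to their day 3 means.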

How the data were processed

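Total RNA labelled with Cy3 was hybridized to 1-colour Agilent mouse miRNA arrays, 3 per group. The authors deposited scanner output, in which each miRNA has a total gene signal (an intensity, background subtracted by Feature Extraction, version 10.7.3.1 per the file headers, another version in the study's methods) and a detection flag, used here as it stands. The series' log2 value table, also deposited by the authors, was used only to check the labels. Total signals of 650 miRNA rows were quantile normalized over 39 arrays, floored at 2 and taken to log2. limma 3.58.1 (with statmod 1.5.0) in R 4.3.3 was fitted to 18 arrays (days 3 and 5 of control cells, Activin A cells and cells with both factors), since the study's methods also use quantile normalization, a false discovery rate of 0.05 and a log2 difference over 1. Mouse rows detected on at least 2 of 3 arrays of 1 group of a comparison were tested. An undetected group was set at the lowest detected signal of its arrays for a bound.

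Members, lists and the rule for naming miRNAs were chosen with earlier results of these data known. Named were the 10 largest rises and falls among called miRNAs detected on all 6 arrays, the 5 largest bounds, the 3 largest differences each way from the other 2 changes, their other strands and list members. miR-369-3p, miR-718, miR-181b, miR-546 and the other called miRNAs outside this rule were chosen after their values were seen. Deviations of same-numbered day 3 and day 5 arrays from their group means correlated at 0.33, 0.37 and 0.45 over 279 miRNAs. Those of differently numbered arrays correlated at -0.47 to 0.20. The labels do not say that same-numbered arrays belong together, and these dependent values do not settle it. The main fit used no pairing. Replicate number was used as a block in an alternative, and within each treatment in an alternative added after seeing the data. Slide, as numbered from the file headers, was used as a fixed term where the comparison could be estimated and otherwise as a random block. Precision is limited by there being 3 arrays a group. Scripts were tested on simulated data.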

Additional observations from a re-analysis of the deposited data

Results flagged for a closer look

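Changes that differed between treatments by a test of the difference itself (limma, log2 scale, Activin A change minus the other change) were taken from the ends of each ranking. Against control cells they were miR-375 (2.93), miR-141 (2.38), miR-302a* (2.15), miR-99a (-3.82), miR-9* (-3.67) and miR-153 (-3.45). Against Activin A plus Wnt3a, where treatment cannot be told apart from scan session, they were miR-762 (2.87), miR-718 (1.57), miR-302b* (1.29), miR-10a (-2.54), miR-196a (-2.18) and miR-199a-5p (-1.90). In all of these except miR-302a*, at least 1 group holds arrays on which the miRNA was undetected. Of the 39 rows that are not mouse miRNAs, 0 were detected on all 3 Activin A arrays of day 3 or day 5 and on none of the control arrays of that day.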

How the results depend on the processing

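The call counts of the Activin A change, its difference from control and its difference from Activin A plus Wnt3a (32, 51 and 13) fell to 1, 6 and 0 with normexp background correction (offset 50), and to 20, 26 and 4 over miRNAs detected on all arrays of the comparison. Normalizing the miRNAs detected on all 18 arrays among themselves, chosen after seeing the data, gave 8, 24 and 3. A floor of 8 gave 15 for the Activin A change and 6 for the difference from Activin A plus Wnt3a, which also fell to 8 without a detection filter, to 4 with 24 arrays and to 8 with all 39 arrays. In settings added after seeing the data, the control change (79) fell to 9, 51 and 37 with normexp, with detection on all arrays and among the common miRNAs, and the change with both factors (25) fell to 0, 14 and 8, and to 16 with a floor of 8. Leaving out 1 array gave 27 to 31 calls for the Activin A change, 49 to 56 for the difference from control, 9 to 13 for that from Activin A plus Wnt3a, 74 to 84 for control and 25 to 28 for both factors.

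The methods' one-way analysis of variance called 27 miRNAs, all 27 among the 32. The replicate block called 31, and 30 within each treatment, and besides miR-152, let-7c and, against both factors, miR-718 (adjusted p = 0.0611) and miR-302b* (adjusted p = 0.0594), it changed no call of the miRNAs named by the rule. Under 75th percentile scaling over the miRNAs detected on all 18 arrays, miR-15b* turned to 0.068 and miR-431* to 0.075, and normexp turned miR-219 to -0.007. Slide as a random block left 32 calls, at an estimated correlation within slides of 6e-04. The Activin A arrays of day 3 share no slide with those of day 5, so this fit cannot tell day and slide apart. Normexp lowered the differences more than their p: 164 miRNAs passed limma's adjusted p in the Activin A change, and where it gave 0 calls, an unadjusted p under 0.05 was reached by 133 miRNAs for the difference from Activin A plus Wnt3a and by 168 for the change with both factors. Depth in the sense of signal over background limits the miRNAs near the floor, including most falls and every miRNA undetected on day 3.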
